A study of Mus musculus with 6 samples.

Results

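The Trim genes encode the tripartite motif family of ubiquitin ligases. They were taken here as every gene whose symbol is Trim followed by a digit in the probe table of the array, measured by a probe set with 1 gene symbol, and for a gene with more than 1 such probe set by the one with the highest mean over all arrays. This rule, which uses no difference between the groups, gave 64 Trim genes of 22180 genes tested. They were measured in 3 samples of RKIP knockdown cells and 3 samples of control knockdown cells, with 1 Affymetrix Mouse Gene 2.0 ST array per sample. All 6 samples were 168FARN cells, a mouse breast cancer line, and every one carried a stably integrated retroviral hairpin vector with a puromycin marker. In the RKIP knockdown cells the hairpin was directed at RKIP, the Raf kinase inhibitor protein encoded by Pebp1, and in the control knockdown cells it was directed at firefly luciferase, a gene that mouse cells lack. The comparison asks which transcripts differ between cultured tumour cells with the RKIP hairpin and those with the luciferase hairpin. In this design the loss of RKIP and any other effect of the RKIP hairpin cannot be told apart. The labels call the samples of a group independent, but whether the knockdown cells were a pool or a clone, and whether samples came from separate transductions, is not given. The p-values below measure the spread between these samples, which may be technical.

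A typical TRIM protein carries an amino-terminal RING finger, which binds a ubiquitin-charged E2 enzyme, then a B-box and a coiled coil through which the protein dimerises. The carboxy-terminal domain selects the target. In the most common class it is a SPRY (B30.2) domain, and other classes carry a PHD finger with a bromodomain, NHL repeats or a COS box with a fibronectin repeat. Many SPRY members are transcribed in response to interferon and act in innate immunity, either as restriction factors that bind viral proteins or as ligases that tune the RIG-I, cGAS-STING and Toll-like receptor pathways, while others work in muscle, neurons, chromatin or the centrosome. In the mouse a group of antiviral Trim genes has expanded by tandem duplication on chromosome 7.

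All values are log2 intensities after robust multi-array averaging (RMA), and all changes are RKIP knockdown minus control knockdown on that log2 scale. The array medians lay between 5.72 and 5.77. Pebp1 measured 7.14, 6.91 and 6.60 in RKIP knockdown cells, against 7.73, 7.70 and 7.72 in control knockdown cells, a log2 change of -0.83 (limma, adjusted p = 0.0996, 56.3% of the control level). The mean of its probe sets gave -0.33 (adjusted p = 0.303). The 95th percentile of 1105 olfactory receptor genes, which these cells should not transcribe, was 5.33 and is used as the background measure. The keratin gene Krt8 was well above it (10.32 in RKIP knockdown and 10.37 in control knockdown cells). The epithelial adhesion gene Epcam was below it (4.80 and 4.60), but 5 of 7 measured epithelial genes were above it in both groups. The leukocyte gene Ptprc was far below it (3.40 and 3.61). The mean level of 6 mesenchymal genes was higher in RKIP knockdown arrays (9.01 to 9.09) than in control arrays (8.83 to 8.85), with 0 of the 6 past the adjusted threshold. The genes did not move together: Col1a1 (0.69), Pdgfra (0.35) and Pdgfrb (0.32) were wholly higher, and Vim was wholly lower (-0.09). Col1a2 (-0.05) and Thy1 (0.01) had overlapping groups. The mean level of 8 macrophage and myeloid genes, 4 of them above the background measure, was 5.30 to 5.39 in RKIP knockdown arrays and 5.31 to 5.36 in control arrays. Of those 4, Cd68 was wholly lower (-0.30), while Csf1r (0.26), Lyz2 (0.25) and Fcgr1 (0.12) had overlapping groups. Of 7 measured lymphocyte genes, 2 were above the background measure. Cd79a was wholly higher (0.38), and Nkg7 (-0.11) had overlapping groups. In both lists 0 genes passed the adjusted threshold. The part of these marker differences in the values below was not tested. With bulk RNA, a change in the share of a cell type and a change in RNA per cell cannot be told apart.

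No Trim gene passed an adjusted p of 0.05 in either direction. Over all genes 45 were higher in RKIP knockdown cells at this threshold (0.203%) and 11 were lower (0.0496%). At an adjusted p of 0.1 a single member, Trim30d, was higher (1.56% of the Trim genes, against 0.343% of all genes) and 0 were lower (0.0992% of all genes). At an unadjusted p of 0.05 in the same limma fit 9 Trim genes were higher, 14.1% of the family against 5.01% of all genes, and 3 were lower, 4.69% against 5.09%. The count of 9 moved with the arrays used, and was 3 to 10 with 1 array left out. Without the third control array the 3 that were left made 4.69% of the family against 4.58% of all genes. The other fits with 1 array left out gave 7.81% to 15.6% of the family, against 3.92% to 4.88% of all genes. By the methods' test, which fits each gene alone, 0 passed after adjustment (0.0180% of all genes higher and 0.0135% lower), and at the same unadjusted threshold 11 were higher, against 5.39% of all genes, and 2 were lower, against 5.16%. The values of the 3 RKIP knockdown arrays lay wholly above those of the 3 control arrays for 12 Trim genes, 18.8% against 8.67% of all genes, and wholly below them for 6, 9.38% against 8.67%. By the fold change and p that the study's methods name (1.5-fold and unadjusted p of 0.01), Trim30d was again the single Trim gene that was higher, beside 0.261% of all genes.

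The family as a whole was centred near zero. Of the 64 changes 35 were above 0 and 29 below, with a median of 0.01, against -0.01 over all genes, and a range of -0.36 to 1.41. The highest measured change was that of Trim30d, the third largest positive change among all 22180 genes, but its control values were below the background measure defined above, and set against that measure its difference is at least 0.48. The next Trim gene, Trim12c, was at 0.51 with all its values below the background measure, so the order of these genes is not settled. Only 34 of the 64 were above the background measure in both groups, and 36 in at least 1 group. Measured against domain class, 20 of 32 members with a RING, B-box and SPRY domain were above 0 (median 0.03). The medians were -0.04 for both the PHD-bromodomain class and the NHL class, -0.06 for the class with a COS box, fibronectin repeat and SPRY domain, and -0.14 for the members without a RING finger, each with 4 measured members. The members of these 4 classes ran from -0.22 (Trim9) to 0.17 (Trim67), and those of the transmembrane class, Trim13 and Trim59, were at -0.03 and 0.04. Both ends of that range had low signals. Trim67 was below the background measure in both groups. The mean of Trim9 was below it in RKIP knockdown cells and 0.119 above it in control knockdown cells. This sets no minimum for the difference in Trim9. Its groups overlapped, and the 95% confidence interval of its change ran from -0.44 to 0.003 (limma). Of the 4 members without a RING finger, 1 was above the background measure.

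**Figure D1:**
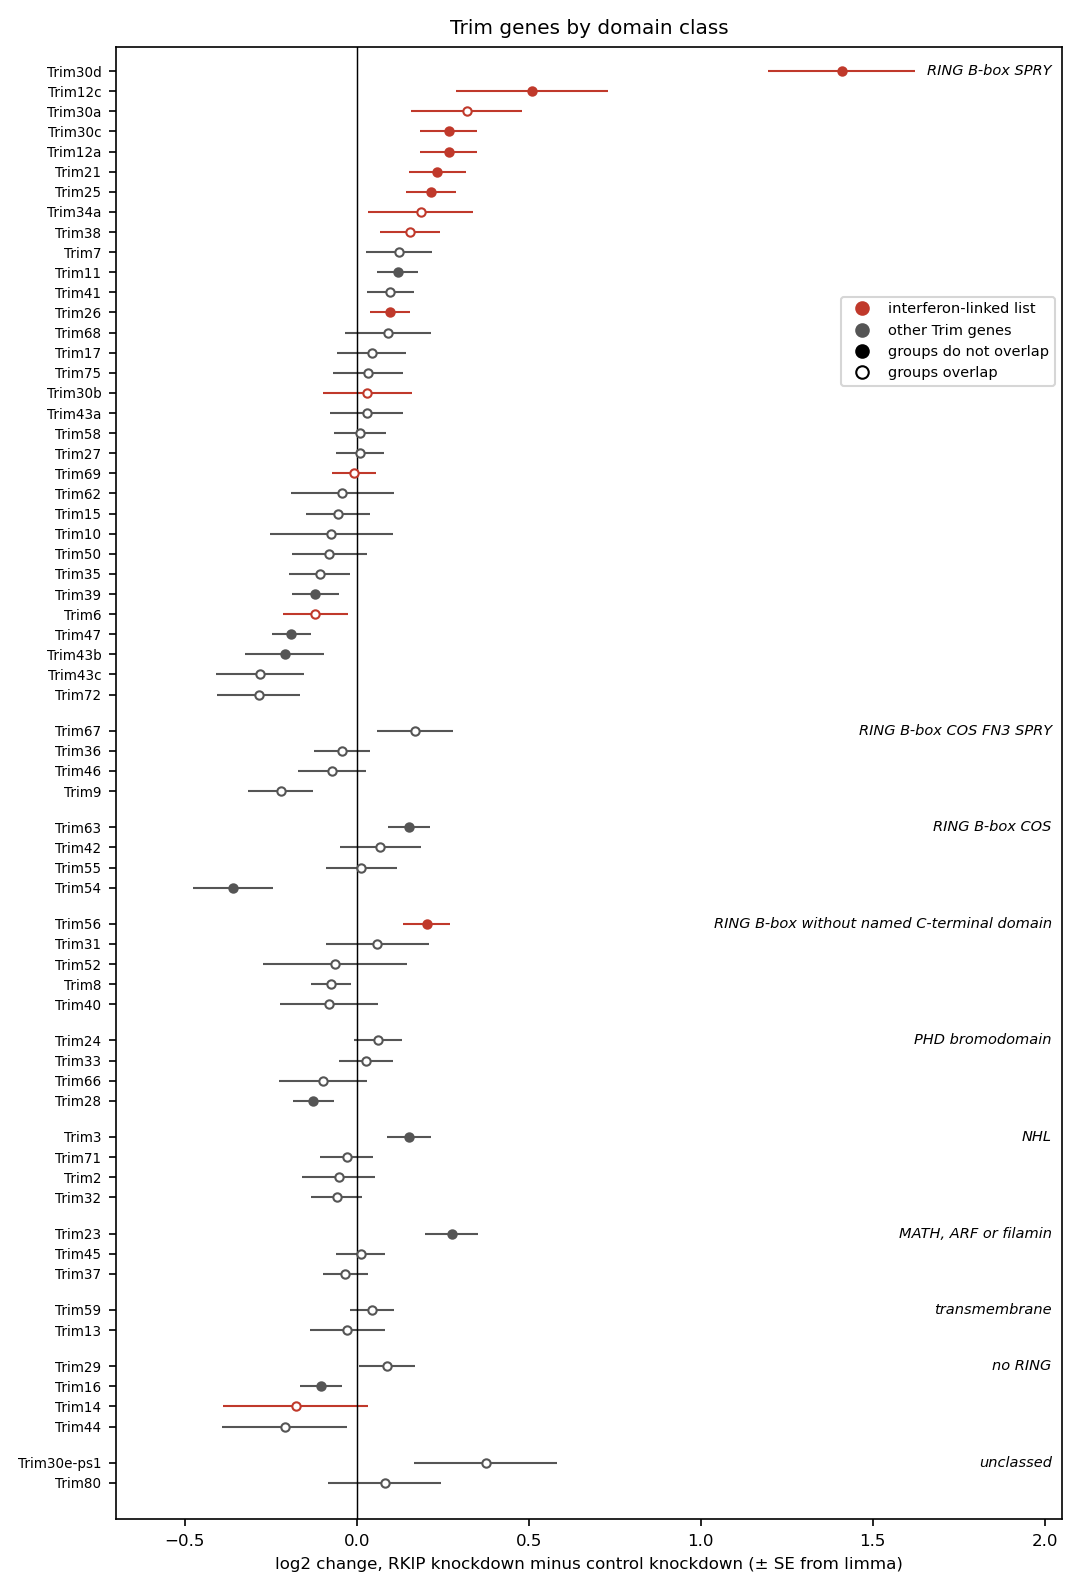
Log2 change of each of the 64 Trim genes (x axis, RKIP knockdown minus control knockdown, bars are limma's SE), grouped down the page by domain class, with interferon-linked genes in red and filled points where the 3 arrays of one group do not overlap the 3 of the other. The other members run from -0.36 to 0.51, and the 1.41 of Trim30d is measured against control values below the background measure.

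Trim30d is a mouse SPRY ligase, also called Trim79, that is known to act against tick-borne flaviviruses. It measured 6.01, 5.64 and 5.78 in RKIP knockdown cells, against 3.99, 4.36 and 4.86 in control knockdown cells. The groups did not overlap, and all 3 control values were below the background measure of 5.33 while all 3 RKIP knockdown values were above it. The means were 5.81 ± 0.19 and 4.40 ± 0.43 (SD, n = 3 each), a log2 change of 1.41 with an SE of 0.21 and a 95% confidence interval of 0.90 to 1.92 (limma, adjusted p = 0.088). That is a measured ratio of 2.66, or at least 1.39-fold if the control level is set to the background measure. An exact two-sided permutation test gave p = 0.1, the smallest that 3 against 3 arrays can give. The adjusted p was 0.000807 with a variance trend and robust fitting, and up to 0.285 when 1 array was left out, with changes of 1.21 to 1.64 in those 6 fits.

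Trim30d belongs to a tandem cluster on chromosome 7 whose order in RefSeq is Trim6, Trim34a, Trim5, Trim12a, Trim34b, Trim12c, Trim30b, Trim30c, Trim30a, Trim30d and the pseudogene Trim30e-ps1. This grouping was made after the values were seen. A single-gene probe set measured 9 of the 11, of which 8 were above 0, with a median change of 0.27, against a median of -0.01 over the 55 other Trim genes. For 4 of the 9 the groups did not overlap, each of them higher in RKIP knockdown cells, beside 8.67% of all genes. Signals of these 9 single-gene probe sets were low: that of Trim30a alone was above the background measure in both groups. A probe set shared by Trim34a and Trim34b, which is not among the 9, was above it on every array (means 7.03 and 6.14). The members are close copies of each other, so a probe set may also take signal from a neighbour.

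Trim30a, which in mouse macrophages restrains Toll-like receptor signalling through loss of the adaptors TAB2 and TAB3, measured 6.96, 6.51 and 6.65 in RKIP knockdown cells and 6.20, 6.69 and 6.27 in control knockdown cells. The second control array lay within the RKIP knockdown values, so the groups overlapped, and the change of 0.32 had an SE of 0.16 (limma, adjusted p = 0.559). Trim12c, a mouse homologue of the primate retroviral restriction factor TRIM5, measured 5.00, 5.10 and 5.02 in RKIP knockdown cells, against 4.01, 4.98 and 4.61 in control knockdown cells. Those groups were separated by a narrow margin, set by the second control array. All 6 values were below the background measure, and the change was 0.51 with an SE of 0.22 (limma, adjusted p = 0.50). It was 0.25 without the first control array and 0.73 without the second.

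Trim12a, the other homologue of TRIM5 with a probe set of its own, measured 4.77, 4.58 and 4.63 in RKIP knockdown cells and 4.43, 4.28 and 4.47 in control knockdown cells, a change of 0.27. Trim30c gave the same change of 0.27, with 4.43, 4.44 and 4.28 in RKIP knockdown cells and 4.24, 4.10 and 4.01 in control knockdown cells. In both genes the groups did not overlap, both had an adjusted p of 0.377 in limma, and both lay wholly below the background measure. The pseudogene Trim30e-ps1 (change 0.37, SE 0.21), Trim34a (0.19, SE 0.15) and Trim30b (0.03, SE 0.13) had overlapping groups. A second and dimmer probe set of Trim34a had a change of 0.47 with no overlap between the groups and all values below the background measure (limma, adjusted p = 0.304 over all probe sets), and the mean of its probe sets gave 0.33. Trim6, a ligase that in human cells makes free ubiquitin chains used by the kinase IKKε, was the one measured member of the cluster below 0, with 5.10, 4.99 and 5.28 in RKIP knockdown cells and 5.15, 5.23 and 5.34 in control knockdown cells (change -0.12, SE 0.09).

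**Figure D2:**
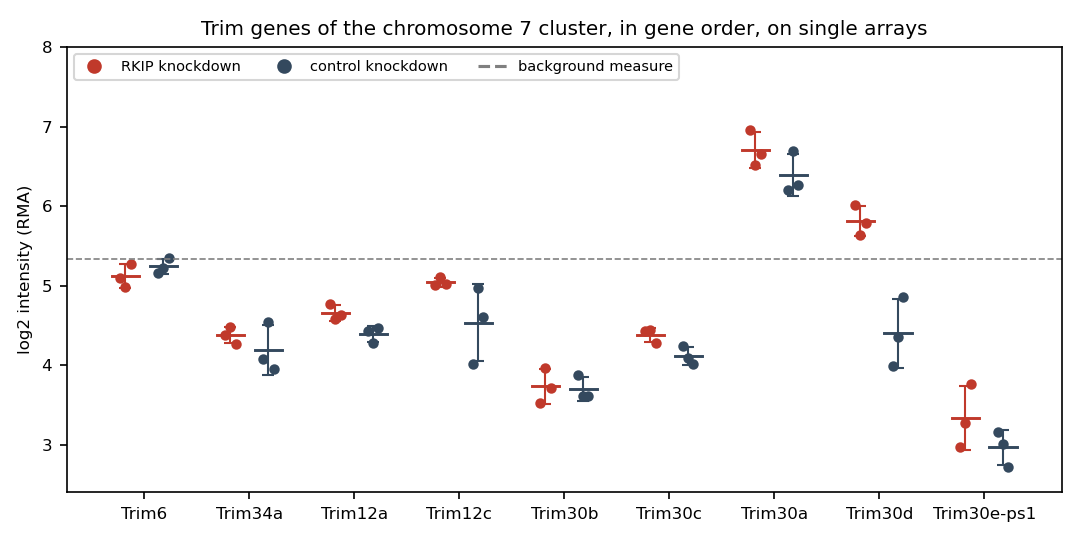
Log2 intensity on each array (y axis) for the 9 measured Trim genes of the chromosome 7 cluster in gene order (x axis), RKIP knockdown in red and control knockdown in dark blue, with bars for the mean and SD and a dashed line at the background measure of 5.33. Trim30d is the one gene whose 2 groups lie on opposite sides of that line.

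The promoters of these genes were read for an element of interferon regulatory factors (IRF), the transcription factors that drive antiviral genes. The element searched was TTTC, any 2 bases and TTTC again, on either strand and with overlapping matches counted, in RefSeq windows on GRCm38.p6 that run from 250 bases before the annotated start of a gene to 50 bases after it. The 250 bases before the start of Trim30d, on the minus strand at chr7:104507850-104508099, are shown because this gene had the largest change, with the element in capitals.
Trim30d: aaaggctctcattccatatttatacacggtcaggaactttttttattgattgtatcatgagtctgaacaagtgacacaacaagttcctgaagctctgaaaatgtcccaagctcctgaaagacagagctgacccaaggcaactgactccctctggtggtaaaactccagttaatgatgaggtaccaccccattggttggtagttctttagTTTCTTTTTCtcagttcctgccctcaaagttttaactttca

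The element begins 41 bases before the start of Trim30d. Windows of 30 bases around it are given for the other interferon-linked members that hold one, on chromosome 7 except for Trim26 on chromosome 17, each read 5′ to 3′ on the strand of its gene with the element in capitals. The positions are chr7:104465210-104465239 for Trim30a, chr7:104353359-104353388 for Trim12c, chr7:104315466-104315495 for Trim12a, chr7:104244457-104244486 for Trim34a, chr7:102565450-102565479 for Trim21 and chr17:36836976-36837005 for Trim26.
Trim30a: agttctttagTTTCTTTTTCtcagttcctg
Trim12c: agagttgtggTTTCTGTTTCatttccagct
Trim12a: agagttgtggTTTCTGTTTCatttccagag
Trim34a: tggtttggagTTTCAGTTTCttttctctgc
Trim21: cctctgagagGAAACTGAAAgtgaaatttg
Trim26: ccgcttccgaTTTCACTTTCcttttctcgg

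The window of Trim30a was identical to that of Trim30d at 30 of 30 bases, and those of Trim12a and Trim12c shared 28 of 30. The element starts 36 bases before the start of Trim30a in this window and 29 before that of Trim12c, whereas in Trim12a, Trim34a and Trim21 it lies within the first bases of the transcript, beginning at base 11, 11 and 14. Trim21 and Trim26 each hold 2 overlapping copies. A second annotated start of Trim30a has the element at base 3.

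The element was present in 8 of the 49 measured Trim genes with a window (16.3%), against 1079 of 27025 genes in the whole table (3.99%). It was found in 7 of 14 interferon-linked members (50%) and in 1 of 35 others (2.86%), and in 5 of 8 measured genes of the chromosome 7 cluster. Tandem copies can share promoter sequence, as the windows above show, so these genes are not independent. The 8 members with the element had a median change of 0.25, from -0.05 in Trim2 to 1.41 in Trim30d, and 7 of them were above 0. The 41 members whose windows lack these letters had a median of 0.01 with 21 above 0. They include the interferon-linked Trim30c (0.27), Trim25 (0.22) and Trim56 (0.20), each wholly higher in RKIP knockdown cells. Trim38 (0.16), Trim30b (0.03), Trim69 (-0.01) and Trim6 (-0.12) also lack it and had overlapping groups. The 15 members without a window had a median of -0.04. The element, the interferon-linked list and the cluster share members, so their parts in these medians cannot be told apart. A match is a description of the sequence and not evidence that a factor binds there.

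**Figure D3:**
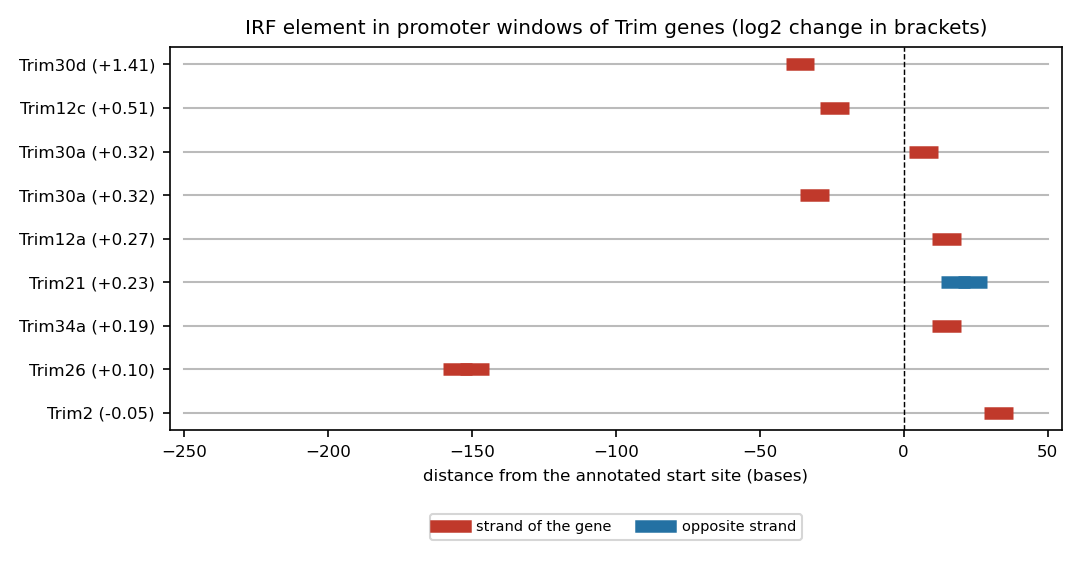
Place of the IRF element (coloured bars) relative to the annotated start (x axis, bases, dashed line at the start) in the promoter windows of the 8 measured Trim genes that hold it, ordered from the highest to the lowest log2 change, which is given in brackets. Trim30a has 2 annotated starts, and red bars read on the strand of the gene and blue bars on the opposite strand.

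Outside the cluster the interferon-linked genes with the clearest separation were Trim21, Trim25 and Trim56. Trim21, a cytosolic antibody receptor that sends antibody-coated virus to the proteasome, measured 7.66, 7.63 and 7.77 in RKIP knockdown cells, against 7.58, 7.45 and 7.33 in control knockdown cells. Trim25, the ligase that attaches ubiquitin to the RNA sensor RIG-I, measured 8.58, 8.69 and 8.64 in RKIP knockdown cells, against 8.53, 8.37 and 8.36 in control knockdown cells. Trim56, a ligase linked to STING signalling, measured 8.48, 8.46 and 8.52 in RKIP knockdown cells, against 8.22, 8.38 and 8.24 in control knockdown cells.

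In each of these 3 genes all RKIP knockdown values were above all control values, and all were above the background measure. The changes were 0.23 ± 0.08 for Trim21, 0.22 ± 0.07 for Trim25 and 0.20 ± 0.07 for Trim56 (± SE), with limma adjusted p-values of 0.429, 0.400 and 0.400. Trim26, which limits interferon-β induction through loss of nuclear IRF3, had a change of 0.10 with no overlap between the groups (adjusted p = 0.620). Trim38 (0.16), Trim69 (-0.01) and Trim14, a RING-less adaptor at the mitochondrial antiviral protein MAVS (-0.18), had overlapping groups. Each of them was below the background measure in both groups.

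Taken as the list of 17 interferon-linked Trim genes, which was drawn up with earlier results of these data known, 15 were measured and 0 passed an adjusted p of 0.05. Of the 15, 12 were above 0, 6 had an unadjusted p under 0.05 in the direction of RKIP knockdown and 0 in the other, and 8 had RKIP knockdown values wholly above the control values. Over all genes 5.01% were higher and 5.09% lower at the unadjusted threshold. The count of 6 was 2 to 7 with 1 array left out, the lowest without the third control array. The median change of the list was 0.20, and 5 of the 15 were above the background measure in both groups. Among the 49 other Trim genes 23 were above 0, 3 were higher and 3 lower at the unadjusted threshold, 4 lay wholly above and 6 wholly below, and the median was -0.03. The 7 interferon-linked genes outside the chromosome 7 cluster had a median of 0.16, and 4 of them had no overlap, all higher in RKIP knockdown cells. These counts stand beside the 8.67% of all genes that lay wholly above.

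Interferon-linked TRIM ligases are known to act on or with nucleic acid sensors and their partners. The transcripts of these proteins, not the proteins, were read from a fixed list. Of 16 measured, 4 were higher in RKIP knockdown cells at an adjusted p of 0.05, beside 0.203% of all genes, and 0 were lower. They were the RNA sensor genes Ifih1 (change 1.001, limma adjusted p = 0.0173), Dhx58 (0.76, adjusted p = 0.0280) and Ddx58, which encodes RIG-I (0.54, adjusted p = 0.0413), and the transcription factor gene Irf7 (0.67, adjusted p = 0.0470). The kinase gene Tbk1 (0.06), the adaptor genes Mavs (-0.11) and Sting1 (0.06), and Tab2 (0.03) and Tab3 (0.10) did not pass. None of the 4 passed in the methods' test (adjusted p of 0.102 to 0.180) or with the replicate number as a block, and 0 or 1 of the 16 passed with 1 array left out, although 4 or 5 were higher at an unadjusted p of 0.05 in each of those 6 fits.

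Of 13 measured E1 and E2 enzymes, which load and carry ubiquitin or its relatives, 0 passed the adjusted threshold. The largest change was in Uba7, which activates the interferon-induced modifier ISG15, with 7.13, 7.17 and 7.05 in RKIP knockdown cells and 6.63, 6.76 and 6.88 in control knockdown cells (0.36, adjusted p = 0.210). Ube2l6, the E2 enzyme of ISG15, had a change of 0.23 (adjusted p = 0.357). In both the groups did not overlap. The genes for the common RING partners Ube2d1, Ube2d2a and Ube2d3 had changes of 0.04, 0.03 and 0.02.

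Among members with no listed interferon link the highest change above the background measure was in Trim23, whose protein ends in an ARF-type GTPase domain. It measured 8.16, 8.20 and 8.15 in RKIP knockdown cells, against 7.77, 7.90 and 8.02 in control knockdown cells, and the groups did not overlap. The change was 0.28 with an SE of 0.08 and a 95% confidence interval of 0.09 to 0.46 (limma, adjusted p = 0.320). Trim3, an NHL-repeat ligase of neurons, measured 9.44, 9.59 and 9.52 in RKIP knockdown cells and 9.38, 9.36 and 9.36 in control knockdown cells (0.15, adjusted p = 0.489). Trim63, the muscle ligase MuRF1, measured 5.86, 5.89 and 5.90 in RKIP knockdown cells and 5.71, 5.80 and 5.68 in control knockdown cells (0.15, adjusted p = 0.477). Both genes separated the groups, as did Trim11, a SPRY ligase with a change of 0.12 (adjusted p = 0.549).

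The lowest change of the family was in Trim54, the microtubule-binding muscle ligase MuRF3. It measured 7.74, 7.50 and 7.75 in RKIP knockdown cells, against 7.86, 8.23 and 7.99 in control knockdown cells. All RKIP knockdown values were below all control values, and the change was -0.36 with an SE of 0.12 (limma, adjusted p = 0.387). A second and dimmer probe set of Trim54 had a change of -0.10 with overlapping groups. The 4 muscle members did not share a direction. Trim63 at 0.15 was above 0, while Trim54 was below 0. So was Trim72, a membrane repair protein of muscle whose change was -0.29 with a signal below the background measure. Trim55, also below that measure, was at 0.01 with overlapping groups.

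Trim47, a SPRY ligase, had the smallest unadjusted p of the members that were lower. It measured 8.01, 8.06 and 8.02 in RKIP knockdown cells, against 8.22, 8.18 and 8.26 in control knockdown cells, with no overlap, a change of -0.19 and an SE of 0.06 (limma, adjusted p = 0.359). Trim39 (-0.12), Trim16 (-0.11), Trim28 (-0.13) and Trim43b (-0.21, below the background measure) were also wholly lower in RKIP knockdown cells, with adjusted p-values of 0.534 to 0.610. The changes of Trim43c (-0.28), Trim9, a neuronal ligase (-0.22), and Trim35 (-0.11) came with overlapping groups. All RKIP knockdown values of Trim9 were below the background measure.

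**Figure D4:**
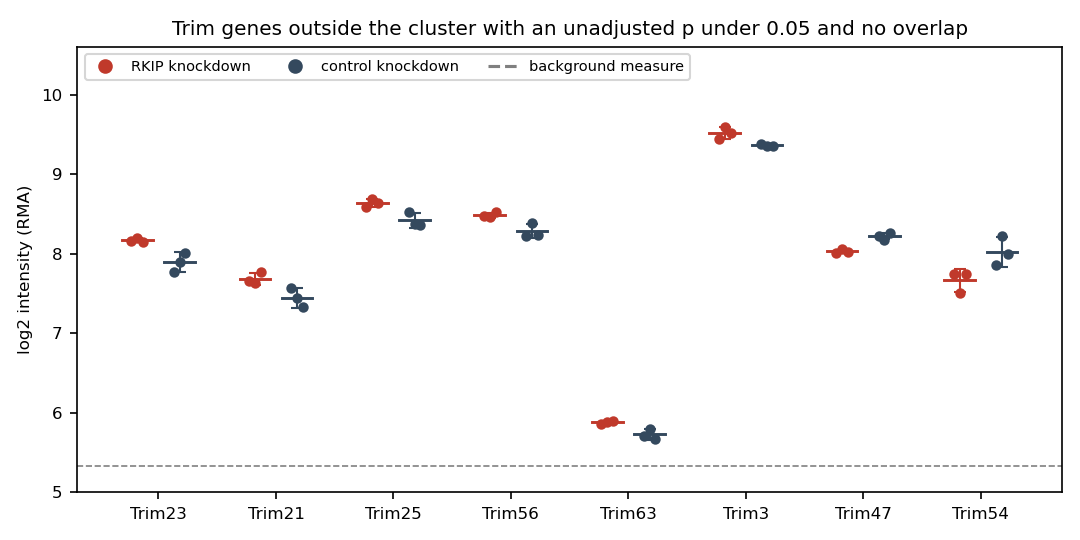
Log2 intensity on each array (y axis) for the 8 Trim genes outside the chromosome 7 cluster with an unadjusted limma p under 0.05 and no overlap between the groups (x axis), RKIP knockdown in red and control knockdown in dark blue, with bars for the mean and SD and a dashed line at the background measure of 5.33. In the first 6 genes the RKIP knockdown values are the higher ones, and in Trim47 and Trim54 they are the lower ones.

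Differences were small in the chromatin regulators of the PHD-bromodomain class. Trim28 (KAP1), the corepressor recruited by KRAB zinc-finger proteins, measured 10.39, 10.50 and 10.47 in RKIP knockdown cells, against 10.57, 10.55 and 10.61 in control knockdown cells, a small but complete separation (-0.13, SE 0.06, limma adjusted p = 0.534). Trim24 (0.06), Trim33, which acts in SMAD signalling (0.03), and Trim66 (-0.10) had overlapping groups. Both group means of Trim66 were below the background measure. The 5 probe sets with the highest signal in the family were those of Trim37, Trim28, Trim8, Trim59 and Trim24. Besides Trim28, none of these 5 separated the groups, and Trim37, a ligase of the centrosome, had a change of -0.03 with a 95% confidence interval of -0.19 to 0.12.

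Of the 12 TRIM relatives that carry other symbols, 0 passed the adjusted threshold and the changes ran from -0.19 to 0.07. Only 5 of the 12 were above the background measure, and Triml2, at the upper end of that range, was below it. The interferon-induced nuclear body gene Pml was at -0.10 with overlapping groups, and the microtubule-associated ligase gene Mid1 at -0.19 with RKIP knockdown values of 10.08, 10.02 and 10.13 wholly below the control values of 10.26, 10.27 and 10.26 (adjusted p = 0.377).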

How the data were processed

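Total RNA of 3 RKIP knockdown and 3 control knockdown samples was hybridised to 1 array each. Per the labels, the deposited values come from RMA in the oligo package, with no version given in the sources used here, and they lie on a log2 scale. The table held 41345 probe sets and all 6 columns were used. By the platform's annotation, 23521 probe sets had 1 gene symbol, 1820 had several and 16004 had none. Only the first kind was tested by gene. All 64 Trim genes matched their RefSeq symbol. No filter on signal was applied. Arrays carry no read depth, and their number limits the precision.

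The 2 groups were fitted with lmFit and eBayes of limma 3.58.1 under R 4.3.3, which left 4 residual degrees of freedom, with Benjamini-Hochberg adjustment over the 22180 genes, and the script was tested on simulated data. Named genes were the 8 highest and 8 lowest changes above the background measure, the 5 highest signals, the interferon-linked list and the PHD-bromodomain class, and other members are given with their class. The members and lists were chosen with earlier results of these data known. Alternatives covered normalisation, centring, the filter, probe sets, the variance model, array weights, a replicate block, the methods' analysis of variance, thresholds and each array left out. RefSeq promoter windows (GRCm38.p6) were found for 49 of the 64 members. The study's qRT-PCR and tumour data were not analysed here.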

Additional observations from a re-analysis of the deposited data

Results flagged for a closer look

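A probe set of the chromosome 7 cluster that the probe table assigns to 2 Trim genes, and which therefore entered no test by gene, measured 6.99, 6.94 and 7.15 in RKIP knockdown cells and 5.75, 6.16 and 6.502 in control knockdown cells. The groups did not overlap and the log2 change was 0.89 (SE 0.19, limma adjusted p = 0.359 over all 41345 probe sets, unadjusted p = 0.00284). It was picked from 7 several-gene probe sets with a Trim symbol, by an unadjusted p under 0.05 and values wholly above the controls. The p and the separation are therefore part of that rule and no separate support. Among the others, the probe set of Trim65 and Trim47 was wholly lower (-0.20). Those shared by Trim12c and Trim5 had changes of 0.31 and 0.48 with overlapping groups. The flagged probe set cannot be given to either of its genes.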

How the results depend on the processing

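The Trim count of 0 higher became 1, which was Trim30d, with the third of genes of lowest signal removed, with a variance trend and robust fitting, at an adjusted p of 0.1 and at the methods' thresholds, and it was 0 in the other alternatives. Trim30d cleared that filter through its RKIP knockdown arrays (mean 5.81, against 4.40 in control knockdown and a lowest mean kept of 4.92), so the call gained there is no separate support. The count lower was 0 in all. Over all genes, the 45 higher and 11 lower became 116 and 40 with that filter, 307 and 213 with the variance trend, 76 and 22 at an adjusted p of 0.1, 4 and 3 with the methods' test, and 0 to 4 and 0 with 1 array left out. Centring on medians gave 7 lower. The median Trim change moved between -0.03 and 0.03. At its change of -0.83, Pebp1 passed the threshold with the filter (limma adjusted p = 0.0353), with the variance trend (limma adjusted p = 0.000749) and at 0.1. It did not pass in the other settings. These included the replicate block (limma adjusted p = 0.244) and the methods' test (adjusted p = 0.261). With 1 array left out, its change was -0.69 to -0.96 (limma adjusted p = 0.104 to 0.340). The mean of its probe sets gave -0.33.

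The replicate numbers are shared by the groups, but same-numbered arrays deviated together only weakly (r = -0.01, 0.07 and 0.10), and not every array correlated best with its own number. A replicate block gave 0 genes higher and 0 lower over all genes, and 0 Trim genes. Of 32 named Trim genes 28 had 1 sign in all settings, and Trim30b, Trim33, Trim37 and Trim69 changed sign in 10 of 472 values.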
